A study of Mus musculus with 12 samples.

Results

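The genes of glycolysis, of lactate and pyruvate handling and of the closely linked creatine kinase reaction were followed in cultured mouse hippocampal neurons from the day of plating to 15 days in vitro (DIV). They comprised 38 genes chosen by name from the pathway: glucose transporters, the enzymes that carry glucose to pyruvate, lactate dehydrogenases and monocarboxylate transporters, the pyruvate dehydrogenase complex and its kinases, *Ppargc1a*, *Ckb* and *Ckmt1*. All 38 were measured, 1 of them (*Pkm*, listed on the array as *Pkm2*) under an older symbol, among 20358 genes in all. They were covered by 455 of the 212138 probesets that carried a single gene symbol.

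The neurons came from hippocampi of RjOrl:SWISS mouse embryos of embryonic day 17.5 to 18.5, untreated apart from the culture itself, and total RNA was hybridised to Affymetrix Mouse Gene 1.0 ST arrays. Each of 6 groups (0, 1, 3, 6, 12 and 15 DIV, the 1 DIV arrays taken at 20 h) held 2 arrays, replicate 1 and replicate 2, which makes 12 arrays. Every culture grew in glucose-supplemented Neurobasal medium with B27, part of which was refreshed every few days, and the cell division blocker cytosine arabinoside was added at 3 DIV at 1 µM, so the 6, 12 and 15 DIV groups had been exposed to it and the 0 and 1 DIV groups had not. The study describes the replicates as independent. The p-values rest on how far the 2 cultures disagreed across the 6 times, once a constant difference between them was removed. That spread was moderated by the spread of all genes, and it covers these 2 cultures only. How precise a value can be is limited by how many arrays there were.

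Glycolysis splits glucose into pyruvate in the cytosol, and lactate dehydrogenase interconverts pyruvate and lactate, which leaves or enters cells through monocarboxylate transporters. Pyruvate that enters mitochondria is turned into acetyl-CoA by the pyruvate dehydrogenase complex, which its kinases inhibit. In brain, neurons are known for the glucose transporter GLUT3 and for neuron-specific enolase, whereas astrocytes are known for high glycolytic rates and lactate release.

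All values below are log2 expression levels of a gene on 1 array, and differences are on the log2 scale, where 1 unit is a doubling. Where the levels of a gene are listed, the 6 values of each replicate stand in the order 0, 1, 3, 6, 12 and 15 DIV. Levels of different genes depend on their probes and were not set against each other. The expression of most of these genes rose during culture. At 15 DIV 22 of the 38 genes (57.9%) were higher than at 0 DIV and 0 were lower (limma, p-values adjusted by Benjamini-Hochberg across the 20358 genes, threshold 0.05), where 16.4% of all genes were higher and 8.43% lower. At an unadjusted p under 0.05 the counts were 25 higher and 2 lower (*Pfkfb1* and *Pfkfb3*), and other processing settings gave up to 2 lower after adjustment. The median change of the 38 genes was 1.05, against 0.01 over all genes, and 31 had a change above 0. In 28 genes both 15 DIV arrays lay above both 0 DIV arrays, and in 3 (*Pfkfb1*, *Pfkfb3* and *Eno3*) below them. For all genes these percentages were 32.7% and 30.2%.

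**Figure D1:**
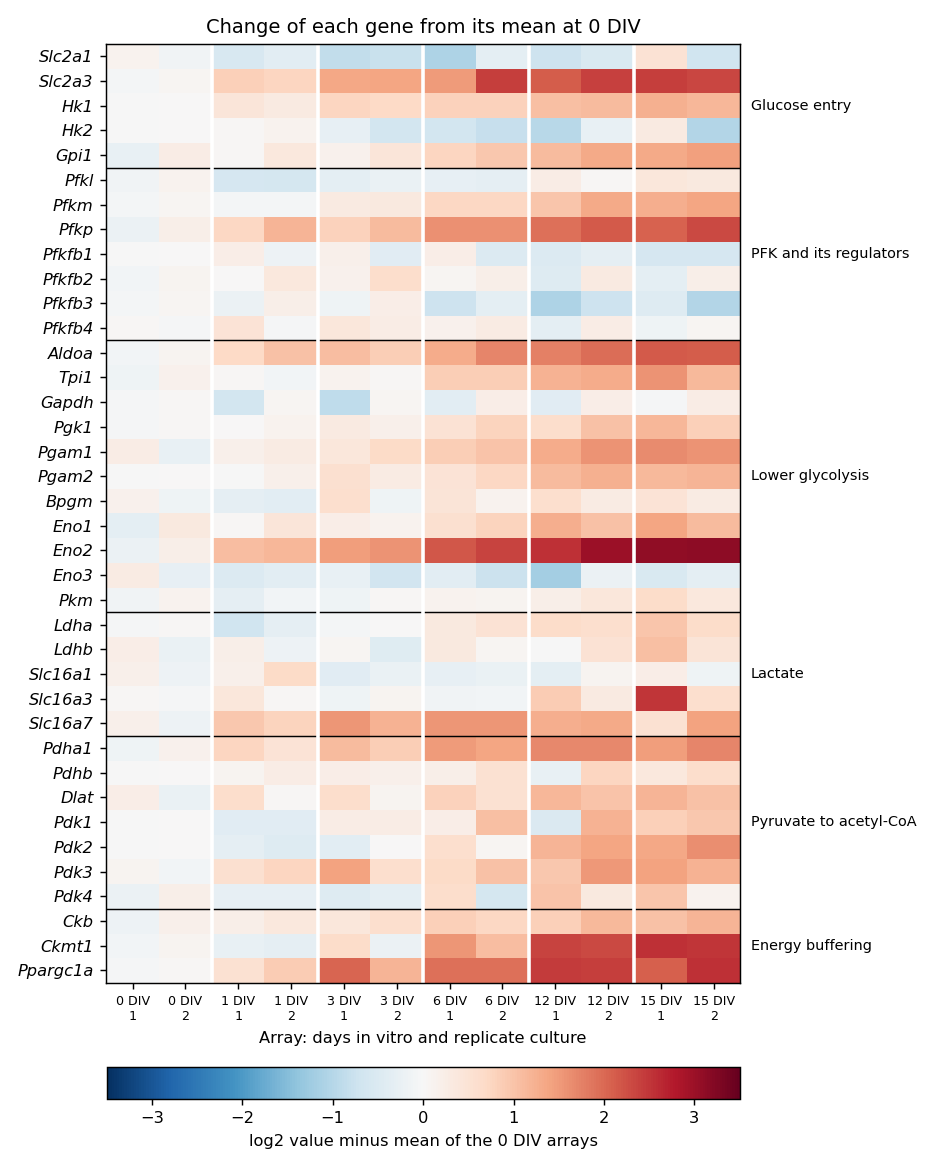
Change in log2 expression of each of the 38 genes (rows, grouped by role) on each of the 12 arrays (columns, by days in vitro and replicate) from that gene's mean at 0 DIV, shown by colour. Most rows turn towards higher values from 6 DIV on, and *Eno2* reaches the largest change of the 38 genes, 3.12 in the mean of the 15 DIV arrays.

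The rise was gradual. At 1 DIV 2 genes were higher than at 0 DIV (*Pfkp* and *Eno2*, with 0.766% of all genes higher) and 0 lower (0.28% of all genes, with 2 of the 38 lower at an unadjusted p under 0.05). Without adjustment 9 of the 38 were higher at 1 DIV at the same limit. At 3 DIV 8 were higher (4.7% of all genes) and 0 lower (1.41%, unadjusted 1). At 6 DIV 15 were higher (9.88%) and 0 lower (3.85%, unadjusted 0). At 12 DIV 21 were higher (15.9%) and 1, *Pfkfb3*, was lower (8.94%). These comparisons share the 0 DIV arrays. The counts at the early times rested on single arrays, ranging from 0 to 2 at 1 DIV, from 1 to 9 at 3 DIV and from 7 to 18 at 6 DIV when each of the 12 arrays was left out in turn. Over all 6 times 23 genes passed the moderated F test (22% of all genes). With a straight line over hours in culture, 27 had a rising slope (17.4% of all genes) and 2, *Pfkfb1* and *Pfkfb3*, a falling one (12.5%).

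**Figure D2:**
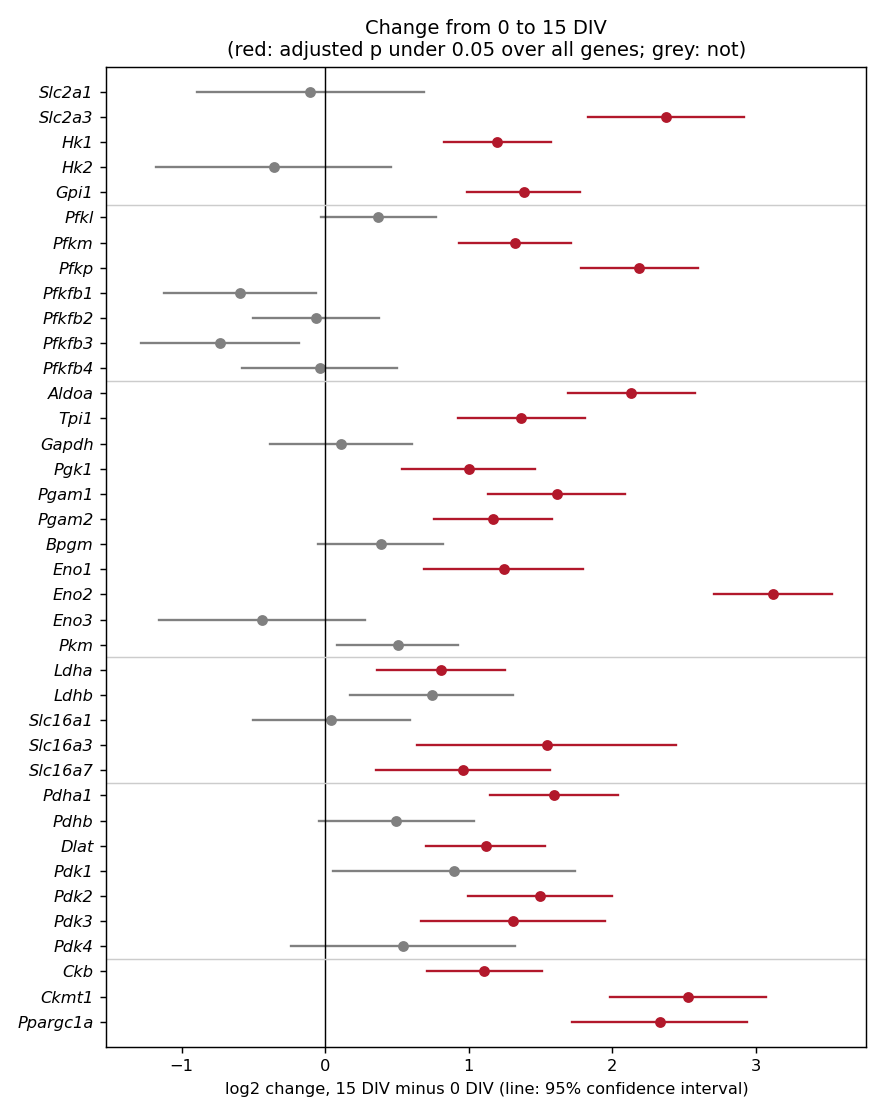
Difference in log2 expression between 15 and 0 DIV for each of the 38 genes (mean of 2 arrays minus mean of 2 arrays) with its 95% confidence interval from limma, grouped by role. Red points passed an adjusted p of 0.05 over all genes and grey points did not. *Eno2* stood highest at 3.12, and no gene below 0 passed.

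Markers of other cell types were present beside those of neurons and changed over the same days. All 9 measured neuron markers were detected, 8 of them above the 95th percentile of olfactory receptor genes, a yardstick for signal without expression, on all 12 arrays and *Camk2a* on 10. By 15 DIV 6 of these 9 markers rose and 0 fell in limma, and 3 were not called, with 1 lower at an unadjusted p under 0.05. The summed linear level of the 9 was 16785 to 17706 at 0 DIV and 30816 to 32328 at 15 DIV. Of 14 astrocyte markers 8 rose and 0 fell by 15 DIV, and their summed level went from between 5217 and 5436 to between 14696 (replicate 2) and 23146 (replicate 1). *Gjb6* stayed under the yardstick on every array. Of 9 oligodendrocyte lineage markers 7 rose and 0 fell (summed level 1041 to 1096 at 0 DIV, 5540 to 6387 at 15 DIV), with *Mobp* under the yardstick throughout. Microglia markers (0 higher and 6 lower of 9), endothelial and mural cell markers (0 higher and 9 lower of 10) and erythroid markers (0 higher and 3 lower of 6) moved down, and of 9 progenitor and cell cycle markers 2 were lower. Among those called lower, *Csf1r*, *Cdh5*, *Flt1* and *Tek* were under the yardstick on every array. *C1qb* was above it on 2 of 12 arrays and *Pecam1* on 3, so these falls are read from levels near background. Among all genes 16.4% were called higher and 8.43% lower at 15 DIV. The summed level of the 38 metabolic genes was 27533 to 29924 at 0 DIV and 59465 to 62175 at 15 DIV. The part of these cell types in the changes described here was not tested, and in such bulk RNA a larger number of cells of a type and more RNA per cell cannot be told apart.

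The transporters that bring glucose into the cell differed in their course. *Slc2a3*, which encodes the neuronal glucose transporter GLUT3, stood at 8.94, 9.83, 10.36, 10.49, 11.12 and 11.41 in replicate 1 and 9.05, 9.74, 10.38, 11.40, 11.38 and 11.33 in replicate 2. Its level was higher at every later time than at 0 DIV on both replicates and had gained most of its rise by 3 DIV (difference 1.38, adjusted p = 0.011). At 15 DIV it was 2.37 higher (SE 0.25, 5.19-fold, limma adjusted p = 7.57e-05), and all 12 of its probesets were higher. *Slc2a1*, which encodes the widely expressed transporter GLUT1, took the values 10.13, 9.44, 9.13, 8.92, 9.29 and 10.50 in replicate 1 and 9.87, 9.63, 9.22, 9.68, 9.48 and 9.30 in replicate 2. The level at 15 DIV, 9.90 ± 0.85 (SD, n = 2), overlapped that at 0 DIV, 10.00 ± 0.18 (SD, n = 2), and the difference of -0.11 had a 95% interval from -0.90 to 0.69 (limma adjusted p = 0.865). Between 1 and 12 DIV every array lay below both 0 DIV arrays, though none of those times passed the test.

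Of the hexokinases, which phosphorylate glucose on entry, *Hk1*, the main brain form, rose. It was at 9.44, 9.88, 10.20, 10.25, 10.50 and 10.68 in replicate 1 and 9.45, 9.75, 10.13, 10.26, 10.56 and 10.61 in replicate 2. The replicates were close at each time, no later array overlapped 0 DIV, and the rise to 15 DIV was 1.20 (SE 0.17, 2.3-fold, limma adjusted p = 4.82e-04). The probesets of *Hk1* did not move as 1 block: 21 of 25 were higher at 15 DIV, with changes from -1.45 to 1.84, and in 2 of them both 15 DIV arrays lay below both 0 DIV arrays. *Hk2*, the form typical of muscle and of growing cells, was low, with 7 of 12 arrays above the olfactory yardstick. It measured 7.15, 7.21, 6.87, 6.52, 6.19 and 7.49 in replicate 1 and 7.19, 7.30, 6.53, 6.36, 6.92 and 6.13 in replicate 2. The 15 DIV arrays lay on either side of the 0 DIV pair, and the difference was -0.36 with a 95% interval from -1.18 to 0.46 (limma adjusted p = 0.53).

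*Gpi1*, the isomerase that turns glucose phosphate into fructose phosphate, measured 10.42, 10.71, 10.84, 11.42, 11.78 and 12.01 in replicate 1 and 10.93, 11.04, 11.09, 11.61, 11.99 and 12.11 in replicate 2. Both 15 DIV arrays were above both 0 DIV arrays, by 1.38 in the mean (SE 0.18, 2.61-fold, limma adjusted p = 2.88e-04).

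The phosphofructokinase step, which commits sugar to glycolysis, is shared by 3 genes named for the tissue where each form was described. *Pfkp*, the platelet form, was with *Eno2* 1 of the 2 genes past the adjusted threshold at 1 DIV. Its levels were 8.93, 9.86, 9.95, 10.74, 11.07 and 11.20 in replicate 1 and 9.33, 10.33, 10.24, 10.72, 11.28 and 11.44 in replicate 2. It was higher already at 1 DIV (difference 0.96, limma adjusted p = 0.0378) and reached 2.19 at 15 DIV (SE 0.18, 4.56-fold, adjusted p = 2.56e-05), with all 25 probesets higher. *Pfkm*, the muscle form, measured 9.89, 9.89, 10.28, 10.68, 10.93 and 11.23 in replicate 1 and 10.03, 9.88, 10.31, 10.67, 11.29 and 11.33 in replicate 2. Its difference from 0 DIV was -0.07 at 1 DIV (95% interval -0.46 to 0.32), and it was 1.32 higher at 15 DIV (SE 0.18, 2.5-fold, adjusted p = 3.72e-04), with all 23 probesets higher. *Pfkl*, the liver form, was at 9.75, 9.28, 9.52, 9.58, 10.13 and 10.27 in replicate 1 and 9.98, 9.26, 9.62, 9.54, 9.90 and 10.20 in replicate 2. All arrays from 1 to 6 DIV lay below the 0 DIV arrays and both 15 DIV arrays above them, a course that passed the F test (adjusted p = 0.0199), while the difference between 15 and 0 DIV of 0.37 did not pass (adjusted p = 0.168).

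*Pfkfb3* went against the rise. It encodes an enzyme that makes the fructose bisphosphate isomer that activates phosphofructokinase, and in neurons its protein is known to be degraded. Its levels were 9.98, 9.84, 9.91, 9.34, 8.97 and 9.61 in replicate 1 and 10.13, 10.27, 10.30, 9.72, 9.34 and 9.04 in replicate 2. The arrays from 0 to 3 DIV overlapped, and all arrays of 6, 12 and 15 DIV lay below both 0 DIV arrays. The difference was -0.90 at 12 DIV (limma adjusted p = 0.0227) and -0.73 at 15 DIV (95% interval -1.28 to -0.18, adjusted p = 0.0545), where all 20 probesets were lower. The difference was -1.19 without replicate 1 of 15 DIV (adjusted p = 0.00831) and -0.28 without replicate 2 (adjusted p = 0.465). The related *Pfkfb1* was under the olfactory yardstick on every array, and its change of -0.59 did not pass (adjusted p = 0.100). *Pfkfb2* and *Pfkfb4* changed by -0.06 and -0.04 (adjusted p = 0.85 and 0.929), and their sign turned under other settings.

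Further down the pathway *Aldoa*, the aldolase that splits fructose bisphosphate, moved most of the steps between phosphofructokinase and enolase. It measured 9.83, 10.62, 10.99, 11.21, 11.68 and 12.07 in replicate 1 and 10.00, 10.93, 10.78, 11.64, 11.88 and 12.03 in replicate 2. No later array overlapped 0 DIV, and the rise was 2.13 (SE 0.20, 4.38-fold, limma adjusted p = 4.39e-05). *Tpi1*, which interconverts the triose phosphates, measured 10.29, 10.46, 10.54, 11.28, 11.63 and 12.01 in replicate 1 and 10.56, 10.34, 10.47, 11.28, 11.71 and 11.57 in replicate 2. It stayed within about the 0 DIV range up to 3 DIV and was higher on every array from 6 DIV, with a difference of 1.37 at 15 DIV (SE 0.20, 2.58-fold, adjusted p = 6.55e-04).

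*Gapdh*, often used as a reference gene, was measured by 1 single-symbol probeset, since 8 others name several genes. The probeset read 11.60, 11.00, 10.74, 11.27, 11.24 and 11.59 in replicate 1 and 11.67, 11.71, 11.70, 11.87, 11.87 and 11.90 in replicate 2. Replicate 2 was above replicate 1 at every time, and the levels at 0 and 15 DIV overlapped. The difference was 0.11, with a 95% interval from -0.39 to 0.60 (limma adjusted p = 0.769).

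*Pgk1*, which yields the first ATP of the pathway, measured 9.48, 9.54, 9.86, 10.04, 10.16 and 10.69 in replicate 1 and 9.58, 9.67, 9.71, 10.32, 10.57 and 10.38 in replicate 2. Both 15 DIV arrays were higher than both 0 DIV arrays (difference 1.00, SE 0.21, limma adjusted p = 0.00546), a call lost without replicate 1 of 15 DIV (0.77, adjusted p = 0.0810). *Pgam1*, the brain form of phosphoglycerate mutase, was at 9.81, 9.73, 9.96, 10.42, 10.85 and 11.21 in replicate 1 and 9.31, 9.84, 10.22, 10.54, 11.13 and 11.13 in replicate 2. Every array from 3 DIV was above the 0 DIV arrays, and the rise reached 1.61 (SE 0.22, 3.06-fold, adjusted p = 3.82e-04). *Pgam2*, the muscle form, lay close to the yardstick at 7.09, 7.07, 7.65, 7.57, 8.20 and 8.23 in replicate 1 and 7.09, 7.27, 7.38, 7.82, 8.34 and 8.28 in replicate 2. It was higher on every array from 3 DIV and by 1.17 at 15 DIV (SE 0.19, adjusted p = 0.00112). *Bpgm*, which makes and breaks bisphosphoglycerate, changed by 0.39 (adjusted p = 0.184).

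Of the enolases, *Eno2*, neuron-specific enolase, rose most of all 38 genes. It measured 8.09, 9.38, 9.77, 10.48, 10.87 and 11.42 in replicate 1 and 8.53, 9.47, 9.89, 10.67, 11.31 and 11.44 in replicate 2. Its level was higher at each sampled time than at the one before on both replicates, without overlap between 0 DIV and any later time. The difference from 0 DIV was 1.11 after 1 day (limma adjusted p = 0.0244) and 3.12 at 15 DIV (SE 0.19, 8.69-fold, adjusted p = 6.28e-06). All 12 probesets rose, by 1.22 to 3.73. *Eno1*, the form found in most tissues, took the levels 9.62, 10.00, 10.19, 10.52, 11.25 and 11.36 in replicate 1 and 10.32, 10.38, 10.10, 10.74, 11.00 and 11.07 in replicate 2. The 0 DIV replicates were far apart and overlapped the arrays of 1 and 3 DIV, and levels were higher from 6 DIV. At 15 DIV the difference was 1.24 (SE 0.25, limma adjusted p = 0.00435). It was 0.66 (adjusted p = 0.00868) when every probeset of the gene entered, and the call was lost without replicate 1 of 0 DIV (0.89, adjusted p = 0.0607) and without replicate 1 of 15 DIV (1.01, adjusted p = 0.0651). *Eno1* has a near-identical copy and several genes of the pathway have processed pseudogenes, so that probes may read more than the named transcript. *Eno3*, the muscle form, changed by -0.44 (adjusted p = 0.368). *Pkm*, pyruvate kinase, changed by 0.50 at 15 DIV (adjusted p = 0.0792) and had a rising slope over the whole course (adjusted p = 0.00563). Its alternative exons, which define the M1 and M2 forms, were not resolved.

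Lactate dehydrogenase is a tetramer of the A subunit, which favours lactate formation in textbook accounts, and the B subunit. *Ldha* measured 11.56, 10.92, 11.54, 11.96, 12.24 and 12.58 in replicate 1 and 11.66, 11.30, 11.62, 12.11, 12.20 and 12.25 in replicate 2. It was lowest at 1 DIV and highest at 15 DIV, where both arrays lay above both 0 DIV arrays (difference 0.81, SE 0.20, limma adjusted p = 0.0133). The call was lost without either 0 DIV array (adjusted p = 0.0843 and 0.0586) and without replicate 1 of 15 DIV (0.57, adjusted p = 0.164). *Ldhb* was at 8.18, 8.15, 8.02, 8.30, 7.93 and 8.99 in replicate 1 and 7.72, 7.78, 7.54, 8.02, 8.46 and 8.39 in replicate 2. Its arrays from 0 to 6 DIV overlapped, both 15 DIV arrays were above both 0 DIV arrays, and the difference of 0.74 (95% interval 0.17 to 1.31) missed the threshold (adjusted p = 0.0591), though it passed under 5 of the alternatives, at 0.46 with all probesets (adjusted p = 0.0470).

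The monocarboxylate transporters move lactate and pyruvate across membranes. *Slc16a7*, which encodes the high-affinity neuronal transporter MCT2, measured 8.21, 8.99, 9.57, 9.58, 9.30 and 8.56 in replicate 1 and 7.87, 8.81, 9.26, 9.58, 9.38 and 9.44 in replicate 2. It was higher from 1 DIV on every array, highest at 6 DIV (difference 1.54, limma adjusted p = 0.00439), and its 15 DIV replicates parted, with replicate 1 back below the 1 DIV arrays. The 15 DIV difference of 0.96 (SE 0.27, adjusted p = 0.0261) was 1.48 without that array (adjusted p = 0.00393) and 0.44 without replicate 2 (adjusted p = 0.262), and the call was also lost without replicate 1 (1.18, adjusted p = 0.0518) or replicate 2 (0.74, adjusted p = 0.180) of 0 DIV. *Slc16a1*, which encodes MCT1, stood at 9.62, 9.63, 9.05, 9.16, 9.10 and 9.69 in replicate 1 and 9.26, 10.12, 9.22, 9.22, 9.54 and 9.28 in replicate 2. The 0 and 15 DIV arrays overlapped, with a difference of 0.04 (95% interval -0.50 to 0.59, adjusted p = 0.921). Its probesets were split, with 4 of 6 higher at 15 DIV and changes from -0.76 to 1.06, and with all of them the difference was 0.62 and passed (adjusted p = 0.0217). *Slc16a3*, which encodes the lactate exporter MCT4 of glycolytic cells, measured 6.70, 7.05, 6.49, 6.53, 7.53 and 9.15 in replicate 1 and 6.60, 6.69, 6.75, 6.55, 6.97 and 7.24 in replicate 2. It was under the olfactory yardstick on both 0 DIV arrays, and replicate 1 of 15 DIV stood far above every other array. The difference of 1.54 passed (SE 0.41, adjusted p = 0.0181) but fell to 0.67 without that array (adjusted p = 0.181) and was 2.42 without replicate 2 (adjusted p = 0.000872). It did not pass without either 0 DIV array (adjusted p = 0.138 and 0.0524), with all probesets (0.81, adjusted p = 0.0798) or in the F test (adjusted p = 0.0642).

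Of the 3 genes among the 38 that encode parts of the pyruvate dehydrogenase complex, *Pdha1* and *Dlat* rose and *Pdhb* did not pass. *Pdha1*, the alpha subunit of pyruvate dehydrogenase, was at 8.77, 9.67, 10.02, 10.43, 10.62 and 10.39 in replicate 1 and 9.08, 9.41, 9.79, 10.31, 10.61 and 10.64 in replicate 2. No later array overlapped 0 DIV, the level at 12 DIV was the highest, and the 15 DIV difference was 1.60 (SE 0.20, 3.02-fold, limma adjusted p = 2.64e-04). *Dlat*, the acetyltransferase of the complex, measured 9.04, 9.43, 9.41, 9.61, 9.97 and 10.01 in replicate 1 and 8.57, 8.86, 8.90, 9.35, 9.81 and 9.84 in replicate 2. Replicate 1 was above replicate 2 at every time, both cultures rose, and the difference was 1.12 (SE 0.19, adjusted p = 0.00145). *Pdhb*, the beta subunit, changed by 0.50 (adjusted p = 0.169).

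Of the kinases that inhibit the complex, *Pdk2*, the broadly expressed form, measured 7.91, 7.60, 7.54, 8.48, 9.11 and 9.27 in replicate 1 and 7.91, 7.45, 7.93, 7.97, 9.28 and 9.54 in replicate 2. It was below the 0 DIV level at 1 DIV and above it on every array from 6 DIV, with a 15 DIV difference of 1.50 (SE 0.23, 2.82-fold, limma adjusted p = 8.18e-04). *Pdk3* was at 7.33, 7.78, 8.64, 7.89, 8.17 and 8.62 in replicate 1 and 7.12, 7.97, 7.82, 8.25, 8.73 and 8.44 in replicate 2. Every later array was above 0 DIV, and the difference was 1.31 (SE 0.29, adjusted p = 0.00757). With all probesets it was 0.77 (adjusted p = 0.0204), and the call was lost without replicate 2 of 0 DIV (adjusted p = 0.0619) or replicate 1 of 15 DIV (adjusted p = 0.0739). *Pdk1* changed by 0.90 (adjusted p = 0.115) and its 12 DIV replicates differed by 1.74. *Pdk4* was under the yardstick on all 12 arrays (difference 0.54, adjusted p = 0.302).

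*Ppargc1a*, which encodes PGC-1α, a coactivator of mitochondrial genes, measured 6.54, 7.12, 8.61, 8.50, 9.02 and 8.68 in replicate 1 and 6.63, 7.47, 7.79, 8.52, 9.02 and 9.16 in replicate 2. Its 0 DIV values were under the olfactory yardstick, so its fold is read from a level near background, and from 3 DIV on every array was more than 1 unit above them. The 15 DIV difference was 2.33 (SE 0.28, 5.03-fold, limma adjusted p = 1.71e-04). Both creatine kinases, which buffer ATP, rose. *Ckmt1*, the ubiquitous mitochondrial form, was at 8.73, 8.56, 9.48, 10.38, 11.20 and 11.39 in replicate 1 and 8.92, 8.50, 8.61, 9.91, 11.12 and 11.31 in replicate 2. It stayed near the 0 DIV range up to 3 DIV except for replicate 1 of 3 DIV and was 2.53 higher at 15 DIV (SE 0.25, 5.77-fold, adjusted p = 5.55e-05). *Ckb*, the cytosolic brain form, measured 10.48, 10.85, 11.04, 11.49, 11.49 and 11.67 in replicate 1 and 10.83, 11.02, 11.24, 11.37, 11.78 and 11.85 in replicate 2. It was higher than both 0 DIV arrays on all later arrays and by 1.11 at 15 DIV (SE 0.18, adjusted p = 0.0013).

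Whether the forms of a step changed by different amounts was tested on 6 within-array log2 ratios, each tested beside all genes. The ratio of *Eno2* to *Eno1* rose by 1.87 from 0 to 15 DIV (SE 0.25, 95% interval 1.33 to 2.42, limma adjusted p = 3.19e-04), and by 1.34 as early as 3 DIV (adjusted p = 0.0121). The ratio of *Slc2a3* to *Slc2a1* rose by 2.48 (SE 0.29, adjusted p = 1.55e-04), having reached 2.21 at 3 DIV (adjusted p = 0.00318). Both calls held in every alternative that was run.

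The ratio of *Hk1* to *Hk2* rose by 1.56 (SE 0.36, limma adjusted p = 0.00879), but by 0.87 without replicate 2 of 15 DIV (adjusted p = 0.0853) and by 1.46 without replicate 2 of 0 DIV (adjusted p = 0.0638). The ratio of *Pfkm* to *Pfkp* fell by 0.87 (SE 0.20, adjusted p = 0.00811), a shift already present at 1 DIV (-1.03, adjusted p = 0.0366), and its 15 DIV call was lost without replicate 1 of 0 DIV or of 15 DIV (adjusted p = 0.0661 and 0.0626). For *Ldhb* to *Ldha* no shift was detected: the difference was -0.07 with a 95% interval from -0.69 to 0.55 (adjusted p = 0.893). The ratio of *Slc16a7* to *Slc16a1* was higher at 3, 6 and 12 DIV (1.69, 1.79 and 1.42, adjusted p = 0.0288, 0.0106 and 0.019). At 15 DIV it was 0.92 higher (adjusted p = 0.105), 1.72 without replicate 1 of that time (adjusted p = 0.00339) and 0.12 without replicate 2 (adjusted p = 0.816).

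**Figure D3:**
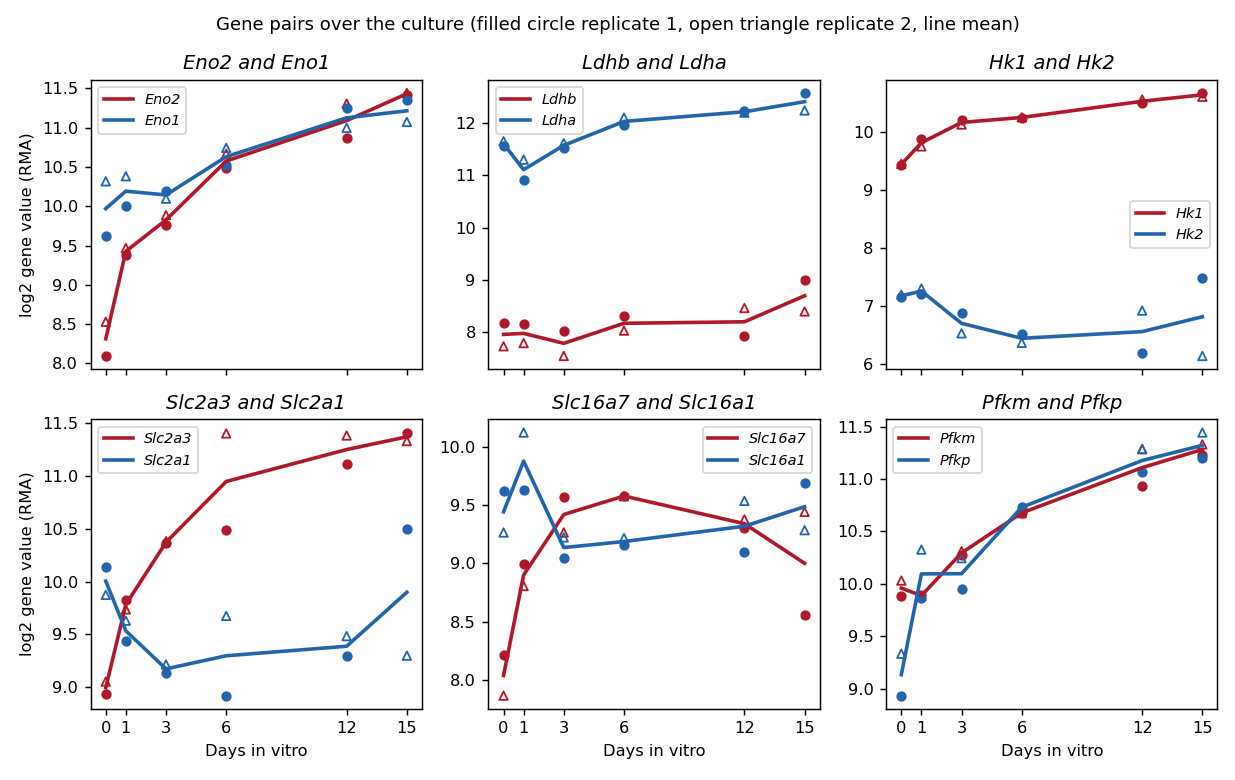
Log2 expression of the 2 genes of each pair against days in vitro, 1 panel a pair, with a point for each array and a line through the mean of the 2 replicates (filled circles replicate 1, open triangles replicate 2). *Eno2* rises more steeply than *Eno1* (ratio change 1.87), whereas the *Ldhb* to *Ldha* ratio changed by -0.07 from 0 to 15 DIV, and the height of 1 gene against the other carries no meaning because their probes differ.

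Between 0 and 15 DIV 32 of the 38 genes moved the same way in both cultures. The share of all genes that did so was not counted. Both 15 DIV arrays lay above both 0 DIV arrays in 32.7% of all genes and below them in 30.2%, and all such genes move the same way in both. At 15 DIV 5 genes differed between replicates by more than 95% of all genes did at that time (gap over 0.85). With the limit set anew for each time, 0 genes passed it at 0, 1 and 3 DIV (0.72, 0.75 and 1.02). At 6 DIV (0.82) 3 genes passed it, and at 12 DIV (1.25) 1 did. *Gapdh* (-0.96) and *Ckmt1* (0.87) at 3 DIV and *Pdhb* and *Eno3* (both -0.99) at 12 DIV exceeded 0.85 but not the wider limit of their time. The 5 genes at 15 DIV were *Slc16a3* (replicate 1 minus replicate 2, 1.90, a gap reached by 0.216% of all genes), *Hk2* (1.35, 0.894%), *Slc2a1* (1.20, 1.39%), *Slc16a7* (-0.88, 4.34%) and *Pdk4* (0.86, 4.7%). With 1 array on each side these gaps have no test. Counted by direction, 22 of the 38 were higher in replicate 1 at 15 DIV, where 52.3% of all genes were.

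Of the genes with these large gaps *Hk2*, *Slc2a1* and *Slc16a3*, all higher in replicate 1, are textbook targets of hypoxia-inducible factor (HIF). Of 15 HIF-inducible genes outside glycolysis 14 were likewise higher in replicate 1 than in replicate 2 at 15 DIV, with a median gap of 0.55, where 52.3% of all genes were higher in replicate 1. *Car9*, 1 of these 14, was under the olfactory yardstick on every array, and *Adm* was above it on 5 of 12. At the other times 8 to 11 of the 15 were higher in replicate 1, and the median gap was 0.02 to 0.13. Other HIF targets may be among the rest of the pathway genes, which were not sorted in this way. There *Gapdh* (-0.31), *Pfkfb4* (-0.21), *Pdk1* (-0.11) and *Gpi1* (-0.11) were lower in replicate 1 at 15 DIV. *Pfkfb3* (0.58), *Tpi1* (0.44), *Slc16a1* (0.40), *Ldha* (0.34), *Pgk1* (0.31), *Eno1* (0.28), *Pkm* (0.25) and *Aldoa* (0.04) were higher. These genes are examples, and of all 38 genes 22 were higher in replicate 1 at 15 DIV. *Ddit4* and *Vegfa* were higher in replicate 1 at all 6 times, at 0 DIV with 9.09 against 7.91 and 8.42 against 7.67. *Adm*, the vasodilator adrenomedullin, was at 9.37 in replicate 1 and 6.90 in replicate 2 of 15 DIV, *Ddit4*, an inhibitor of mTOR signalling, at 9.91 and 8.22, and *Vegfa*, the angiogenic factor, at 8.81 and 7.46. The summed linear level of all 15 was 13052 in replicate 1 and 8914 in replicate 2 at 15 DIV, 9296 to 9827 at 12 DIV and 6690 to 7673 at 0 DIV. Between 15 and 0 DIV 4 of the 15 rose (*Bhlhe40* 1.61 from 0 DIV values under the yardstick, *Higd1a* 1.49, *P4ha2* 1.06 and *Bnip3* 0.83) and 1 fell (*Kdm3a* -0.77). Among all genes 16.4% were called higher and 8.43% lower between these times. In replicate 1 of 15 DIV the astrocyte marker sum was also the higher of the pair. That sum was already higher in replicate 1 at 3 DIV (7779 against 3677), 6 DIV (16277 against 6523) and 12 DIV (22253 against 11229). The part of either in the gap between cultures was not tested.

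**Figure D4:**
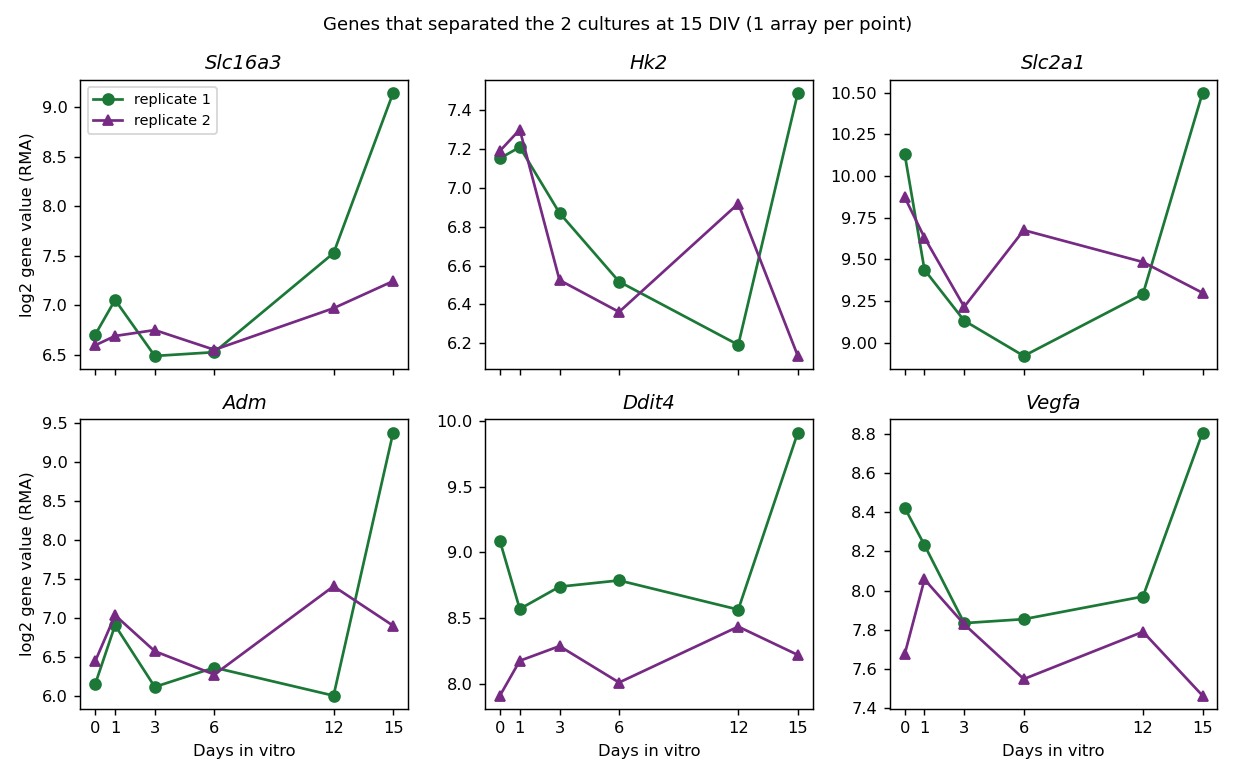
Log2 expression of *Slc16a3*, *Hk2* and *Slc2a1* (top) and of the hypoxia-inducible *Adm*, *Ddit4* and *Vegfa* (bottom) against days in vitro, with 1 array per point, circles for replicate 1 and triangles for replicate 2, and a separate axis range in each panel. At 15 DIV replicate 1 lies above replicate 2 in all 6 panels, by 1.90, 1.35 and 1.20 in the top row.

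The letters ACGTG occur in sites that HIF binds, and no other form of the site was searched. The search covered both strands (CACGT being the reverse complement) in the 250 bases before each annotated start in RefSeq (GRCm38.p6). A palindromic CACGTG counted in each direction. A match was present for 16 of the 36 members with a promoter in the table (44.4%) and for 18.5% of all 27025 genes. Some genes have several starts. Counted by promoter, 36.4% of the 55 promoters of members and 16.6% of all 32851 held a match. Promoters of *Slc2a3* and *Slc16a7* were not analysed here. Some of the genes with matches and *Eno2*, the gene with the largest rise and no match, are shown 5′ to 3′ on the strand of the gene, with the matches in capitals: *Hk2* (chr6:82774455-82774704, minus strand, 2 matches), *Slc2a1* (chr4:119108495-119108744, plus strand, 1 match), *Pgk1* (chrX:106186850-106187099, plus strand, 2 matches) and *Eno2* (chr6:124769674-124769923, minus strand, 0 matches).
Hk2: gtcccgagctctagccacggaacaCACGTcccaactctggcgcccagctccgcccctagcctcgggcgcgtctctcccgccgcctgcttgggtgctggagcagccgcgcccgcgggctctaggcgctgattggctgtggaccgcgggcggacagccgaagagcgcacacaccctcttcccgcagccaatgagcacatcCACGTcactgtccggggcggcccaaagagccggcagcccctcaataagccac
Slc2a1: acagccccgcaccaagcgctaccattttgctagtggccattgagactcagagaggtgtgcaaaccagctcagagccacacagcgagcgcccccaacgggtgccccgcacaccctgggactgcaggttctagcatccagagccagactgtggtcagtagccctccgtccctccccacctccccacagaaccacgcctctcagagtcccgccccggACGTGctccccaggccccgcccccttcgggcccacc
Pgk1: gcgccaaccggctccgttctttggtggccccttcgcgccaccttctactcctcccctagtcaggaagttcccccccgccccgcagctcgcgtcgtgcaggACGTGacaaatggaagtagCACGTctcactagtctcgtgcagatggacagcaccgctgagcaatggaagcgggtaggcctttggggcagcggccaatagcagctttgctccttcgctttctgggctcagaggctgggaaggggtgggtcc
Eno2: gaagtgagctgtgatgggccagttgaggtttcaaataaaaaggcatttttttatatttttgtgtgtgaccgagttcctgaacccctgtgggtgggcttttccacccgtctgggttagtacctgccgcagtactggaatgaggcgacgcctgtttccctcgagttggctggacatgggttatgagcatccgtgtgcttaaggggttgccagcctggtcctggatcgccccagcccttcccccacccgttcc

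*Slc16a3* held 2 matches and *Ldha* 5 at the upstream of its 2 starts. *Pgk1* and *Ldha* were also higher in replicate 1 of 15 DIV, by 0.31 and 0.34, gaps reached by 41.0% and 37.8% of all genes. *Pfkfb2* (-0.55), *Ppargc1a* (-0.48), *Pdhb* (-0.26), *Pdk2* (-0.26) and *Pfkm* (-0.10) also held a match and were lower in replicate 1 at 15 DIV. The remaining genes with a match were higher in it. A match describes letters in this window and says nothing of binding in these cells.

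Neighbouring pathways were read from lists of genes outside the 38. Of 18 other genes of glycolysis and glucose handling 9 rose by 15 DIV, among them *Slc2a6* (2.20), *Aldoc* (1.86, also an astrocyte marker), *Pgm2* (1.79) and *Gpd1l* (1.62), and 1, *Pgm1*, fell (-0.91, limma adjusted p = 0.00439). Their median change was 0.92, against 0.01 over all genes. Of 16 other genes of pyruvate and lactate handling 8 rose, among them the malic enzymes *Me1* (2.65) and *Me3* (3.21, from 0 DIV values under the olfactory yardstick), *Slc16a6* (1.86) and *Bsg* (1.29), the chaperone of monocarboxylate transporters, and *Slc16a4* fell (-1.33, to 15 DIV values under the yardstick, adjusted p = 0.024).

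In mitochondria 11 of 15 citric acid cycle genes rose and 0 fell (median 0.88), with *Idh3a* at 1.36, *Sucla2* at 1.21, *Suclg1* at 1.07 and *Fh1* at 0.98. The malate-aspartate shuttle, which carries cytosolic reducing equivalents into mitochondria, had 6 of 7 genes higher and 0 lower (median 1.17): *Got1* 1.70, *Slc25a12* 1.41, *Mdh1* 1.21 and *Got2* 1.17 led. Of 9 glycogen genes 6 rose (median 0.80), among them *Gyg* (1.97) and *Pygm* (1.24, with 2 of 12 arrays above the yardstick). By contrast, 0 of 6 pentose phosphate pathway genes passed in either direction in limma (median 0.18), with 1 (*Rpia*, chosen after its value was seen) lower at an unadjusted p under 0.05. Of 7 relatives and partners of PGC-1α *Ppargc1b*, a relative, rose (2.22, from 0 DIV values under the yardstick) and *Nrf1* fell (-0.97). The other 5 passed in neither direction. At an unadjusted p under 0.05 0 genes of the citric acid cycle, shuttle and glycogen lists were lower. These counts stand beside 16.4% of all genes called higher and 8.43% lower at 15 DIV.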

How the data were processed

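RNA of 2 replicates at each of 6 times was amplified from 25 ng and hybridised to Affymetrix Mouse Gene 1.0 ST arrays. The authors deposited log2 expression values for 241576 probesets, made by RMA (background correction, quantile normalisation and summary of probes), and the genome build was not given in the sources used here. Of the probesets, 212138 carried 1 gene symbol, 4672 several and 24766 none, and those without a single symbol were left out. Symbols were updated through RefSeq (2743 changed). For each gene the 50% of probesets with the largest interquartile range over arrays were summarised by median polish, which gave 20358 genes (median 8 probesets a gene, 2257 genes with 1). Since this choice favours probesets that vary, using all of them was an alternative.

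Time as a factor and the replicate number as a block were fitted with limma 3.58.1 in R 4.3.3 (5 residual and 5.64 prior degrees of freedom), with Benjamini-Hochberg adjustment over all genes and a threshold of 0.05. A slope over hours, an F test over times and 6 within-array log2 ratios were fitted likewise. Samples of the same number deviated together (median correlation 0.30, range 0.11 to 0.46, over 15 pairs of times), and the study's methods fit the experiment date, so the numbers were taken as pairs. The code was tested on simulated data. Arrays correlated between cultures at 0.944 to 0.979, and array medians were 7.35 to 7.57. The 95th percentile of 985 olfactory receptor genes (6.48 to 7.13) served as background yardstick.

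Values on every array are given for genes of the 6 pairs, for genes past the 15 DIV or F test, and for *Gapdh*; of other lists, up to 4 called genes that changed most and any called the opposite way. Genes and lists were chosen with earlier results of these data known.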

Additional observations from a re-analysis of the deposited data

How the results depend on the processing

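The count of 22 genes higher at 15 DIV ranged from 17 to 24 over the 12 fits that each left out 1 array, the F test count of 23 from 19 to 25, the rising slopes from 22 to 27, the falling slopes stayed at 2, and the counts at 12 DIV (22 in either direction) ranged from 17 to 22, at 6 DIV from 7 to 18, at 3 DIV from 1 to 9 and at 1 DIV from 0 to 2. The 0 genes lower at 15 DIV became 2 with the mean of the selected probesets or with median centring, 1 with quantile normalisation, without the dimmest tertile of genes or with a trended robust fit, and 0 to 1 when an array was left out. Falling slopes numbered 1 without the dimmest tertile. At 3 DIV 5 genes were called after quantile normalisation. At 1 DIV the 2 genes became 5 with all probesets and 1 with the mean of probesets, quantile normalisation or median centring.

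Without the replicate block 22 genes were higher and 0 lower at 15 DIV, 20 passed the F test, and 0, 6, 13 and 21 were called at 1, 3, 6 and 12 DIV. The pairing thus changed the call at 1 DIV.

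Of the 22 genes higher at 15 DIV 16 kept the call in every alternative run. *Pgk1*, *Eno1*, *Ldha*, *Slc16a3*, *Slc16a7* and *Pdk3* lost it in at least 1, *Slc16a7* also after quantile normalisation (adjusted p = 0.0553) and median centring (adjusted p = 0.0527), and the cause was not tested. None of the 22 changed sign. Calls were gained at 15 DIV by *Pfkfb3* (lower, 8 settings), *Ldhb* (5), *Pdk1* (3), *Pkm* (2), *Pfkfb1* (lower, 2) and *Slc16a1* (1), and *Pfkfb3* was -0.28 without replicate 2 of 15 DIV (adjusted p = 0.465).

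Ratio changes ranged, with an array left out, from 1.66 to 2.09 for *Eno2* to *Eno1*, 1.95 to 3.01 for *Slc2a3* to *Slc2a1*, 0.87 to 2.25 for *Hk1* to *Hk2*, -0.92 to -0.81 for *Pfkm* to *Pfkp*, 0.12 to 1.72 for *Slc16a7* to *Slc16a1* and -0.20 to 0.065 for *Ldhb* to *Ldha*. Genes without a call at 15 DIV turned sign as follows. *Pfkfb2* was 0.0051 with all probesets, 0.031 with the mean of the selected ones and -0.20 to 0.073 without an array. *Gapdh* was -0.16 after quantile normalisation, -0.054 after centring and -0.17 to 0.39 without an array. *Slc16a1* was 0.62 with all probesets (adjusted p = 0.0217), -0.057 with the mean of the selected probesets, -0.20 after quantile normalisation, -0.12 after centring and -0.24 to 0.33 without an array. Without an array *Hk2* ranged from -1.07 to 0.35, *Pfkfb4* from -0.14 to 0.063 and *Slc2a1* from -0.80 to 0.59. Signals near the olfactory yardstick (*Pfkfb1*, *Pdk4*, and *Slc16a3*, *Hk2*, *Ppargc1a*, *Me3* and *Pygm* on some arrays) limit what can be read of those genes.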
